A study of Mus musculus with 7 samples.

Results

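Chromatin accessibility was examined at the genes of 9 chemokine receptors that steer T cells to inflamed tissue, namely Ccr1, Ccr2, Ccr3, Ccr4, Ccr6, Ccr8, Ccr9, Cxcr3 and Cxcr6. Their loci were taken as the GENCODE gene body with 10 kb on each side in the mouse build GRCm38, and every accessible region that overlapped such a stretch was kept. This gave 9 of 17021 protein-coding loci with at least 1 region, and 95 of the 113820 regions measured. The choice used position alone, with no measured value, and 0 regions lay near more than 1 of the 9 genes. Ccr9 had the most regions, 21, followed by Ccr4 with 17, Ccr6 and Cxcr6 with 12 each, Ccr2 with 10, Ccr8 with 9, Cxcr3 with 8, Ccr3 with 4 and Ccr1 with 2.

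Chemokine receptors are G protein-coupled receptors on the surface of leukocytes that follow gradients of small secreted chemokines, so the set of receptors on an activated T cell decides which tissues it can enter. Type-1 helper cells are known for CXCR3, the receptor for the interferon-induced ligands CXCL9, CXCL10 and CXCL11, whereas type-2 helper cells are known for CCR4 and CCR8, and CCR3, the eotaxin receptor best known from eosinophils, has also been described on them. T follicular helper cells, the IL-4+ cells of lymph node follicles, instead use CXCR5, which is not among these 9. ATAC-seq inserts sequencing adapters into open chromatin with a transposase, so that regions with more insertions are more accessible.

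The libraries came from CD4+ T cells of C57BL/6 mice sorted 8 days after infection with 500 L3 larvae of the helminth Nippostrongylus brasiliensis, with 50000 cells in each. LN IL-4+ cells (n = 2) were GFP+ and came from the mediastinal lymph node of IL-4-4get GFP reporter mice. Lung IL-4+ cells (n = 3) were GFP+ cells from lungs of the same line. Lung IFNγ+ cells (n = 2) were YFP+ and came from lungs of IFN-gamma-Great YFP reporter mice. All came from 1 experiment, per the study's methods. The 4get reporter marks cells that transcribe Il4 and not secretion of the protein, the reporter line differed between the lung populations, and reporter-negative cells were not analysed here. Tissue was compared between lung IL-4+ and LN IL-4+ cells, and their difference is named the tissue difference below. The paper regards most IL-4+ cells of the lymph node as T follicular helper cells and those of the lung as type-2 helper cells. Per its methods, lungs were digested with enzymes and lymph nodes were dissociated mechanically. Tissue, cell type and preparation cannot be told apart in this comparison. The cytokine comparison in the lung cannot be told apart from the reporter line, and that of lung IFNγ+ with LN IL-4+ cells differs in tissue, cytokine and line at once.

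The libraries held between 14005923 and 91681969 insertions in the regions as rebuilt from the table, which are lower limits, and a median of 53 to 176 per region. They fell into 2 kinds by the interquartile range of the rebuilt insertions on the log2 scale, narrow (1.64 to 1.73) and wide (2.87 to 3.05), which do not follow the groups, while the deposited log2 values had nearly the same distribution in all 7. The narrow ones were replicate 1 of LN IL-4+ and replicates 2 and 3 of lung IL-4+, and the other 4 were wide. The same split separated the level of the X chromosome, whose regions had a median of 1.23 to 1.33 on the log2 scale in the narrow libraries and 2.25 to 2.47 in the wide ones, while the autosome medians lay between 1.92 and 2.56 in all 7. Over all regions, lung IL-4+ replicate 1 was closer to the lung IFNγ+ libraries (a mean Euclidean distance of 241.0) than to the other lung IL-4+ libraries (318.1), which the other 2 lung IL-4+ libraries were not. Over the 95 receptor regions alone it was closer to its own group (7.51 against 8.95), and results for lung IL-4+ cells are given with and without it. All 6 CD4 T cell markers examined, Cd3e, Cd3g, Cd4, Lck, Cd28 and Il7r, had a region at their transcription start in the table, with a summed density of 79.6 to 119 in the 7 libraries (CPM per kb, where CPM are insertions per 1000000). A start region was present for 0 of 4 basophil and mast cell markers and 0 of 3 eosinophil markers, for 1 of 4 B cell markers (Pax5, 0.898 to 1.43 in lung IFNγ+, 1.19 to 4.48 in lung IL-4+ and 4.87 to 6.16 in LN IL-4+ cells), for 2 of 5 myeloid markers (Itgam and Cd68, with a summed density of 7.19 to 16.8 in LN IL-4+, 7.18 to 20.5 in lung IL-4+ and 11.9 to 15.4 in lung IFNγ+ cells), for 1 of 2 CD8 T cell markers (Cd8b1, 6.61 and 7.31 in LN IL-4+ and 2.95 to 5.57 in the lung libraries), for 1 of 3 NK cell markers (Klrb1c, 1.92 to 4.90) and for 1 of 3 lung epithelium markers (Epcam, 10.5 and 12.5 in LN IL-4+ and 8.79 to 9.61 in the lung libraries). Among the defining genes, Cd8a, Ms4a1, Cd79a, Csf1r, Ncr1, Siglecf, Sftpc and Scgb1a1 had none. Itgam alone was at 7.77 and 5.39 in lung IFNγ+ cells and at 0.898 to 2.89 in the other 5 libraries. Cd68 alone was at 7.67 and 6.56 in lung IFNγ+ cells and at 5.40 to 17.6 in the other 5. The part of the Pax5, Cd8b1, Epcam and Itgam signals in the differences between groups was not tested.

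At most of the receptor loci the lung libraries lay above those of the lymph node, and Cxcr3 was the only one of the 9 loci called between the lung populations. The signal of a locus was the sum of normalised insertions over its regions, in CPM. It was compared with limma on the log2 scale, with p-values adjusted by Benjamini-Hochberg over all 17021 loci, and a locus was called below an adjusted p of 0.05. Between lung IL-4+ and LN IL-4+ cells, 2 of 9 loci were called, Ccr2 and Ccr8, both higher in the lung, where 0.664% of all loci were called higher and 0.417% lower. Between LN IL-4+ and lung IFNγ+ cells, 3 of 9 were called, Ccr2, Ccr3 and Cxcr3, all higher in the lung, against 1.34% of all loci called higher and 0.811% lower. Between the lung populations only Cxcr3 was called, higher in IFNγ+ cells, where 0.0529% of all loci (9 loci) were called in that direction and 0% in the other (0 loci, with 2540 in both directions at an unadjusted p below 0.05). Without lung IL-4+ replicate 1 the loci called numbered 3, 4 and 0 in the 3 comparisons, with 152, 428 and 0 called over all loci. With the spread class as a covariate they numbered 7, 6 and 2, but the calls over all 17021 loci also rose there, from 184, 366 and 9 to 2600, 2016 and 485. They numbered 0 in each where a locus was the mean of the log2 densities of its regions, but there only 0, 2 and 0 of all loci were called. For lung IL-4+ against LN IL-4+ the libraries of the groups did not overlap at 8 of 9 loci, each higher in the lung, whereas this held for 7.88% of all loci (and for 17.7% in the other direction, seen at 0 of 9). For lung IFNγ+ against LN IL-4+, 7 loci were higher without overlap and 1, Ccr4, was lower, against 21.2% and 30.2% of all loci. Between the lung populations, Ccr4 and Ccr9 were higher in IL-4+ cells and Ccr3, Ccr6 and Cxcr3 higher in IFNγ+ cells without overlap, against 24.8% and 28.8% of all loci, so these counts were near the background. The median log2 difference over the 9 loci was 0.85, 0.71 and -0.12 in the 3 comparisons in this order, beside -0.09, -0.06 and -0.04 over all loci. Since the libraries are bulk samples, a lower share of cells with an open locus and less opening per cell cannot be told apart.

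**Figure D1:**
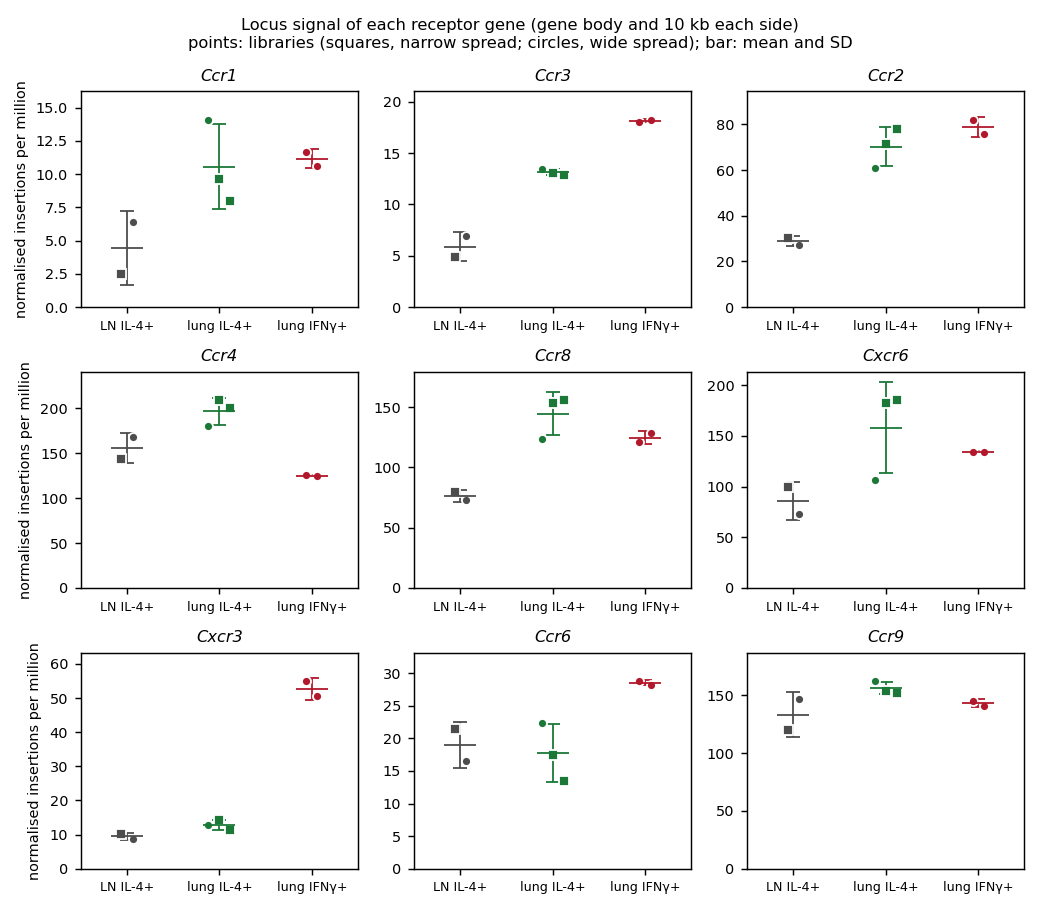
Locus signal of each receptor gene (y axis, CPM, normalised insertions per 1000000 summed over the regions in the gene body and 10 kb on each side) in the 3 populations (n = 2, 3 and 2 from left to right), with one point per library (squares, narrow spread; circles, wide spread) and a bar for the mean with its SD. Cxcr3 was at 50.5 and 54.9 in lung IFNγ+ cells and at 8.80 to 14.3 in the other 5 libraries, while Ccr2 was at 61.1 to 82.1 in all 5 lung libraries and at 27.3 and 30.4 in the lymph node.

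**Figure D2:**
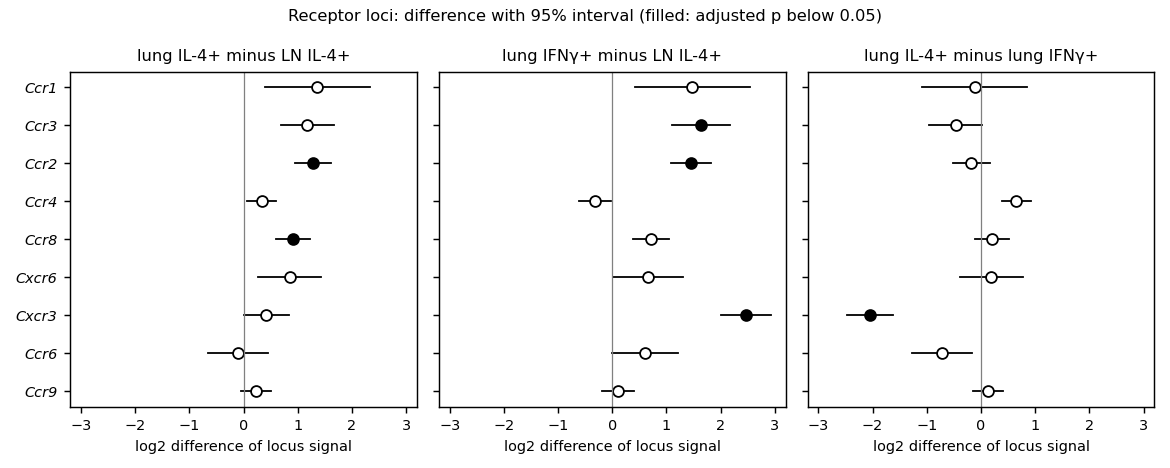
Difference of locus signal on the log2 scale (x axis) for the 9 receptor genes in the 3 comparisons, with its 95% interval as a line. Filled points mark an adjusted p below 0.05, which were Ccr2 and Ccr8 in the left panel, Ccr2, Ccr3 and Cxcr3 in the middle panel, and Cxcr3 in the right panel.

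Single regions gave a similar picture with more genes. Here calls needed an adjusted p below 0.05 over all regions (limma, Benjamini-Hochberg) together with a difference of 3-fold or more. Lung IL-4+ cells were higher than LN IL-4+ cells at 6 of the 95 regions (6.32%, against 1.05% of all regions) and lower at 0 (0.695% of all regions), with 28 higher and 1 lower at an unadjusted p below 0.05. Lung IFNγ+ cells were higher than LN IL-4+ cells at 14 (14.7%, against 2.17%) and lower at 0 (0.862%), with 34 and 3 at an unadjusted p below 0.05. Between the lung populations, 3 regions were higher in IFNγ+ cells (3.16%, against 0.387%) and 0 in IL-4+ cells (0.108%), where 13 and 12 passed before adjustment. Without lung IL-4+ replicate 1 the counts were 6, 13 and 3, while 2070, 4096 and 1168 of all regions were called. With all libraries 1982, 3450 and 564 of all regions were called. In all, 15 regions at 8 of the 9 genes were called in at least 1 comparison, with none at Ccr4, and 3 of the 15 lay at a transcription start of the receptor gene itself, those of Ccr1, Ccr2 and Cxcr3. The median log2 difference over the 95 regions was 0.58 for lung IL-4+ and 0.56 for lung IFNγ+ cells against LN IL-4+ cells and -0.06 between the lung populations, with -0.03, -0.03 and -0.01 over all regions. By gene, the mean was higher in lung IL-4+ cells than in the lymph node at all 10 regions of Ccr2, all 12 of Cxcr6, all 9 of Ccr8, all 4 of Ccr3 and both of Ccr1, at 7 of 8 of Cxcr3, 14 of 17 of Ccr4 and 15 of 21 of Ccr9, but at 4 of 12 of Ccr6. Both comparisons with the lymph node use the same LN IL-4+ libraries. With 2 or 3 libraries a group, many single calls were lost when 1 library was left out, as given for each gene. A group of 2 is then left with 1 library, which is assumed to vary like the others. Ranges given beside a lost call cover the leaving out of any 1 of the 7 libraries.

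**Figure D3:**
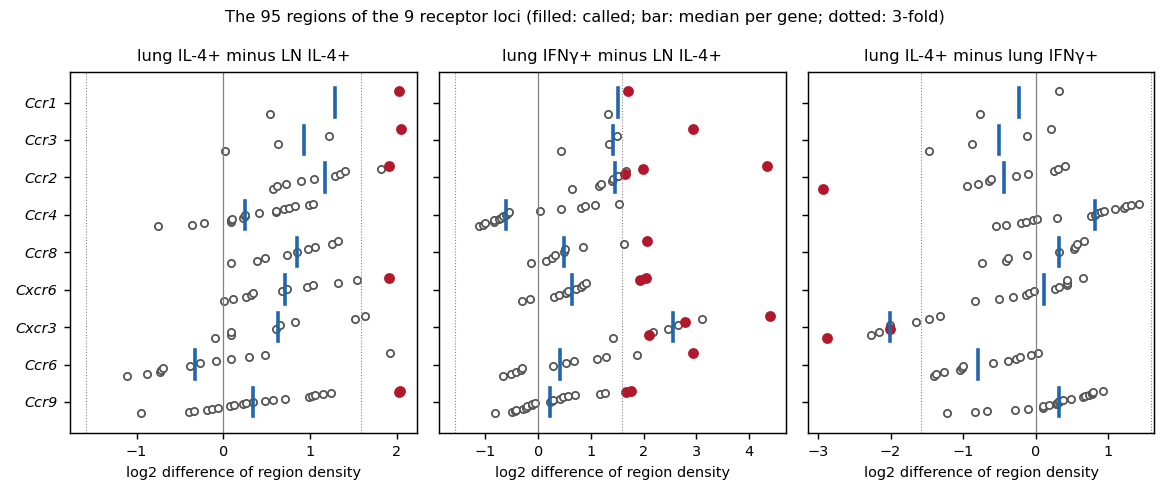
Difference of density on the log2 scale (x axis) for each of the 95 regions, by receptor gene (rows) and comparison (panels), with a bar at the median of each gene and dotted lines at 3-fold. Filled points are called regions, of which there were 6, 14 and 3 in the panels from left to right, and all 8 regions of Cxcr3 lay below 0 in the right panel.

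Cxcr3, the receptor for CXCL9, CXCL10 and CXCL11 that brings type-1 helper cells into inflamed tissue, had the largest difference of the 9 genes. The gene (ENSMUSG00000050232.6) lies on the minus strand of chromosome X at chrX:101731535-101734269, and none of its 8 regions overlapped another protein-coding gene or its flanks. Its locus signal was 54.9 and 50.5 CPM in lung IFNγ+ cells, 12.7, 14.3 and 11.4 in lung IL-4+ cells and 10.3 and 8.80 in LN IL-4+ cells. Both IFNγ+ libraries were thus above every IL-4+ library, and lung IL-4+ libraries were above those of the lymph node by less. The signal in lung IFNγ+ cells was 4.14 times that of lung IL-4+ cells (a log2 difference of -2.05 for IL-4+ minus IFNγ+, SE 0.18, 95% interval -2.47 to -1.63, adjusted p = 0.0218) and 5.54 times that of LN IL-4+ cells (log2 difference 2.47, SE 0.20, adjusted p = 0.00319). Lung IL-4+ and LN IL-4+ cells differed by 0.42 (SE 0.18, adjusted p = 0.357).

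All 8 Cxcr3 regions were higher in lung IFNγ+ cells than in either IL-4+ population without overlap of the libraries, where this held for 21.2% of all regions against lung IL-4+ cells and for 26.5% against LN IL-4+ cells. The transcription start region (chrX:101733774-101734358) had log2 densities, in CPM per kb, of 4.52 and 4.38 in lung IFNγ+ cells, 2.84, 2.46 and 2.00 in lung IL-4+ cells and 2.29 and 2.39 in LN IL-4+ cells. It was called against both, at -2.01 (SE 0.30, adjusted p = 0.0231) for lung IL-4+ minus lung IFNγ+ and 2.11 (SE 0.33, adjusted p = 0.00761) for lung IFNγ+ minus LN IL-4+ cells. The difference was larger at an intergenic region 2876 bp upstream of the gene (chrX:101737145-101737698), with 4.86 and 4.76 in lung IFNγ+ cells, 2.56, 1.44 and 1.80 in lung IL-4+ cells and -0.53 and 1.36 in LN IL-4+ cells. The differences there were -2.88 (SE 0.53, adjusted p = 0.0456) between the lung populations and 4.40 (SE 0.59, adjusted p = 0.00415) against the lymph node. A region between them (chrX:101734966-101736205) was called against the lymph node at 2.78 (SE 0.53, adjusted p = 0.0178) and stood at -2.16 with an adjusted p of 0.0822 between the lung populations. The calls against the lymph node at these 3 regions were lost without either lung IFNγ+ library (2.04 to 2.18 at the start, 3.45 to 5.34 upstream and 2.33 to 3.22 between them, adjusted p up to 0.311). Those between the lung populations at the start and upstream held without lung IL-4+ replicate 1 (-2.22, adjusted p = 0.0198, and -3.19, adjusted p = 0.0379) and were lost without replicate 2 or 3 of lung IL-4+ or either lung IFNγ+ library (-2.22 to -1.80 and -3.19 to -2.63, adjusted p up to 0.774).

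The centre of the upstream region and the bases just before the GENCODE start are shown. The first carries the largest difference between the lung populations at this gene, and the second lies in its promoter. Here and in the other sequences, capitals mark matches on either strand to 7 short consensus motifs of factors known from T cells. The letters were GGTGTGA for T-box factors, AGATAA for factors of the GATA family, AACCACA for Runx factors, TGANTCA for AP-1, TGGAAAA for NFAT, NTCAAAG for TCF factors and GGAAGT for ETS factors. In the 300-base centres of all regions these were found in 4.9%, 15.2%, 11.0%, 13.0%, 7.16%, 21.5% and 24.0%, respectively, and in 7.37%, 16.8%, 11.6%, 14.7%, 5.26%, 23.2% and 23.2% of the 95 receptor regions.
Cxcr3 upstream region, chrX:101737272-101737571, GRCm38, plus strand: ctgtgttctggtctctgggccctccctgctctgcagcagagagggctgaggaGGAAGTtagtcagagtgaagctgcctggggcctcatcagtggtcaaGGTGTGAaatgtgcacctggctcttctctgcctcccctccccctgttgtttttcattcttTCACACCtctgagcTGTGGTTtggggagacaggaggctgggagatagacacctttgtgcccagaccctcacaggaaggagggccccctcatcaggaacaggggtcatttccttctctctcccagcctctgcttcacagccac
Cxcr3 before the start, chrX:101734270-101734397, GRCm38, minus strand (RefSeq): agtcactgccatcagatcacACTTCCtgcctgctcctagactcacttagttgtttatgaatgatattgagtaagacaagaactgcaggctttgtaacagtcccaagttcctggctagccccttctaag
The upstream sequence held 2 T-box matches, 1 Runx match and 1 ETS match, and the 128 bases before the start held 1 ETS match. These 128 bases are the part of a 250-base window before the RefSeq start that precedes the first GENCODE exon. The bases nearest the RefSeq start are thus not shown. A T-box match occurred 2 or more times in 0.213% of all region centres. In the bases before the start of all 32817 RefSeq promoters, over 250 bases, the ETS letters were found in 19.7% and the T-box letters in 3.33%. A match describes the letters and does not show that a factor was bound.

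Cxcr3 is the only one of the 9 genes on chromosome X, and the level of its chromosome differed between the narrow and the wide libraries, which are spread unevenly over the groups. Over the 2181 X regions the median log2 difference was -0.67 for lung IL-4+ minus lung IFNγ+ cells and 0.34 for lung IFNγ+ minus LN IL-4+ cells, beside 0.01 and -0.03 over the autosomes. The sex of the mice is not given in the sources used here. Within the wide libraries, whose X medians lay between 2.25 and 2.47, the Cxcr3 locus was at 12.7 in lung IL-4+ replicate 1 and at 8.80 in LN IL-4+ replicate 2, against 54.9 and 50.5 in lung IFNγ+ cells, so the log2 differences within that class were -2.05 and 2.58, as large as over all libraries. After each library was centred on its own X median, a step chosen after seeing the data, the locus differences were -1.35 (adjusted p = 0.300) and 2.00 (adjusted p = 0.098), the start region stood at -1.31 (adjusted p = 0.138) and 1.64 (adjusted p = 0.0416), the region between them lost its call against the lymph node (2.305, adjusted p = 0.123), and the upstream region was called at -2.18 (adjusted p = 0.0247) and 3.92 (adjusted p = 0.00111). The part of the X chromosome level in the Cxcr3 differences was not tested beyond these values. Without lung IL-4+ replicate 1, the locus difference between the lung populations was -2.05 with an adjusted p of 0.0565. That call was also lost without replicate 2 or 3 of lung IL-4+ or either lung IFNγ+ library (differences between -2.13 and -1.97, adjusted p up to 0.801), and with the gene body alone as the locus (-1.67, adjusted p = 0.0584). The call against the lymph node was lost without either lung IFNγ+ library (2.36 to 2.58, adjusted p up to 0.107).

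**Figure D4:**
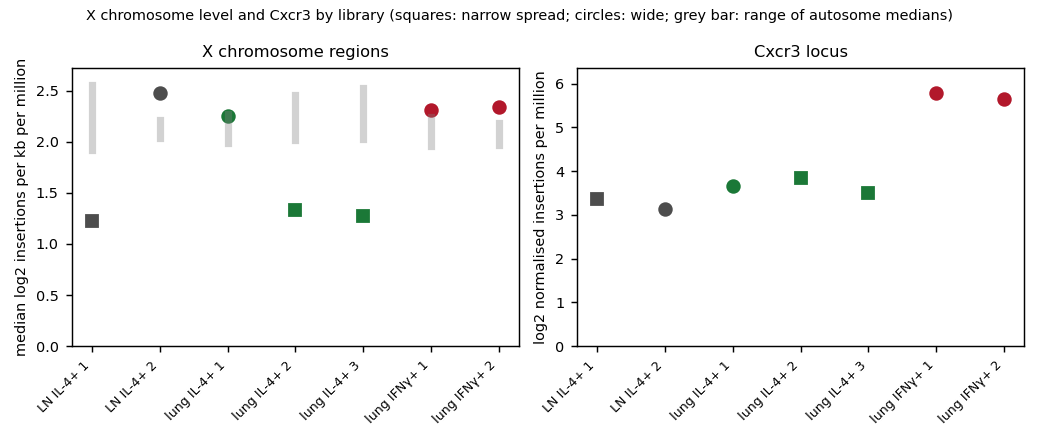
Median log2 density of the X chromosome regions (left, CPM per kb, with a grey bar from the lowest to the highest autosome median) and log2 signal of the Cxcr3 locus (right, CPM) in each of the 7 libraries, with squares for narrow and circles for wide libraries. The X median was 1.23 to 1.33 in the squares and 2.25 to 2.47 in the circles, whereas the IL-4+ libraries of both kinds had Cxcr3 signals of 8.80 to 14.3, on the linear scale, and the IFNγ+ libraries 50.5 and 54.9.

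Ccr2, the receptor for CCL2 and related monocyte chemoattractants, which is also carried by effector T cells, was higher in both lung populations than in the lymph node. The gene (ENSMUSG00000049103.14) lies on the plus strand at chr9:124101950-124113557, and 7 of its 10 regions lie outside the bodies of other protein-coding genes. Its locus signal was 30.4 and 27.3 CPM in LN IL-4+ cells, 61.1, 71.4 and 78.1 in lung IL-4+ cells and 82.1 and 75.8 in lung IFNγ+ cells. Every lung library was above both lymph node libraries, and the lung populations overlapped. The locus was 2.43-fold higher in lung IL-4+ cells (log2 difference 1.28, SE 0.14, adjusted p = 0.0172) and 2.74-fold higher in lung IFNγ+ cells (1.45, SE 0.16, adjusted p = 0.00961) than in LN IL-4+ cells. The lung populations differed by -0.18 (95% interval -0.51 to 0.16, adjusted p = 0.487). Without lung IL-4+ replicate 1 the tissue difference was 1.37 (adjusted p = 0.0247). The tissue call was lost without replicate 2 or 3 of lung IL-4+ or either lung IFNγ+ library (all values between 1.20 and 1.37, adjusted p up to 0.141), and the lung IFNγ+ call without lung IL-4+ replicate 2 or either lung IFNγ+ library (1.38 to 1.53, adjusted p up to 0.208).

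All 10 Ccr2 regions had a higher mean in each lung population than in the lymph node, 9 without overlap in lung IL-4+ cells (13.6% of all regions) and 10 in lung IFNγ+ cells. The transcription start region (chr9:124101715-124103728) had log2 densities of 1.67 and 1.45 in LN IL-4+ cells, 3.13, 3.45 and 3.84 in lung IL-4+ cells and 3.38 and 3.04 in lung IFNγ+ cells. It was called in both, at 1.91 (SE 0.30, adjusted p = 0.0113) and 1.65 (SE 0.33, adjusted p = 0.0224), and did not separate the lung populations (0.26, adjusted p = 0.687). The tissue call held without each library except lung IL-4+ replicate 2 (adjusted p = 0.0686), and the lung IFNγ+ call was lost without replicate 2 of LN IL-4+ or of lung IL-4+ or either lung IFNγ+ library (1.48 to 1.82, adjusted p up to 0.314).

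The region with the smallest p of all 95 lay 1163 bp past the end of Ccr2 (chr9:124114720-124115161). Its log2 densities were 4.96 and 4.57 in lung IFNγ+ cells, 2.03, 1.17 and 2.32 in lung IL-4+ cells and 0.73 and 0.13 in LN IL-4+ cells, so the 3 populations did not overlap and the IFNγ+ libraries were highest. Lung IFNγ+ cells were 20.2-fold above LN IL-4+ cells (log2 difference 4.34, SE 0.45, adjusted p = 0.00176) and 7.61-fold above lung IL-4+ cells (-2.93 for IL-4+ minus IFNγ+, SE 0.41, adjusted p = 0.0207; -3.02, adjusted p = 0.0274, without lung IL-4+ replicate 1). It was the only called region between the lung populations outside Cxcr3. The call between the lung populations was lost without replicate 2 or 3 of lung IL-4+ or either lung IFNγ+ library (-3.17 to -2.59, adjusted p up to 0.673), and that against the lymph node without lung IFNγ+ replicate 1 (adjusted p = 0.0613). The myeloid marker Itgam was also highest in the lung IFNγ+ libraries, whereas Csf1r, Adgre1 and Lyz2 had no start region. Cd68, the other myeloid marker with a start region, was not highest there. It was at 7.67 and 6.56 in lung IFNγ+, 6.28, 13.9 and 17.6 in lung IL-4+ and 14.0 and 5.40 in LN IL-4+ cells. The part of these markers in the difference at the Ccr2 downstream region was not tested.
Ccr2 downstream region, chr9:124114791-124115090, GRCm38, plus strand: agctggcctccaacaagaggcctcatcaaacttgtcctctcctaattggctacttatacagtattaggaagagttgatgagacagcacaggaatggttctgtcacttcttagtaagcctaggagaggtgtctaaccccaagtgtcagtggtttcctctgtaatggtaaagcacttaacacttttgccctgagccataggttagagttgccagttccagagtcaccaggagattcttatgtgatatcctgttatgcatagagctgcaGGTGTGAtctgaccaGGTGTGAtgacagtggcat
Like the upstream region of Cxcr3, this window held 2 T-box matches, here with no other motif of the list. Of the 15 called regions these were the only ones whose centres held a T-box match, and both were called higher in lung IFNγ+ cells against each IL-4+ population. The Cxcr3 start region was called in the same way, and its centre held 0 T-box matches. Among all 95 receptor regions, 7 held a T-box match. A link between the matches and the differences was not tested.

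**Figure D5:**
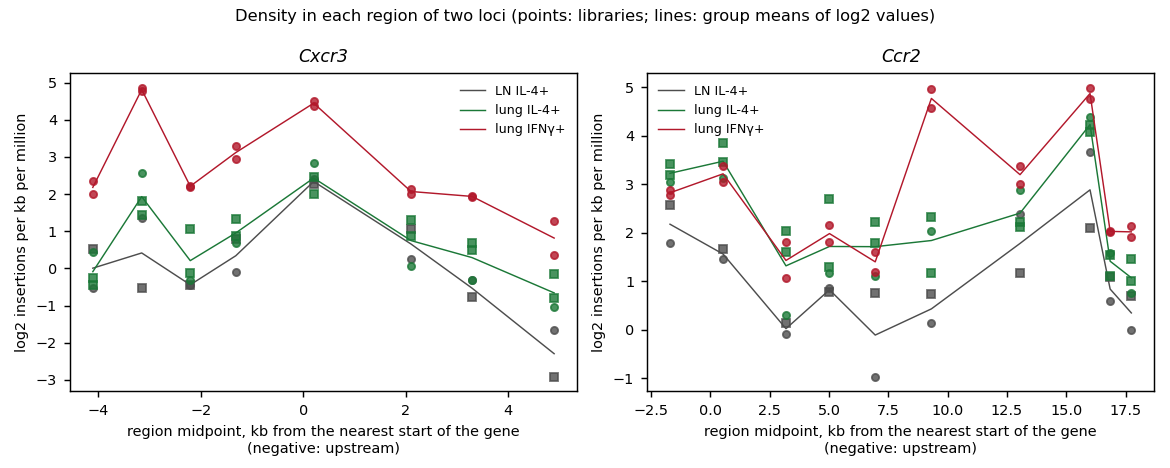
Log2 density in CPM per kb (y axis) in each region of Cxcr3 (left) and Ccr2 (right) by the distance of its middle from the nearest start of the gene in kb (x axis, negative upstream), with one point per library (squares, narrow; circles, wide) and lines through the group means of log2 values. At Cxcr3 the lung IFNγ+ libraries lay above all IL-4+ libraries in every region, whereas at Ccr2 they stood apart most in the region 9314 bp downstream of the start, at 4.57 and 4.96.

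Ccr1 and Ccr3, which lie in the same chemokine receptor cluster of chromosome 9 as Ccr2, Ccr9 and Cxcr6, had few insertions, with all lung libraries above the lymph node. CCR1 binds CCL3, CCL5 and related ligands and is best known from myeloid cells. The Ccr1 locus (ENSMUSG00000025804.5, minus strand, chr9:123962124-123968692) was at 2.50 and 6.41 in LN IL-4+ cells, 14.1, 9.67 and 7.95 in lung IL-4+ cells and 11.7 and 10.7 in lung IFNγ+ cells. All lung libraries were above those of the lymph node, but the lymph node libraries were apart by more than 2-fold, and the differences of 1.36 (SE 0.42, adjusted p = 0.204) and 1.48 (SE 0.46, adjusted p = 0.172) were not called (without LN IL-4+ replicate 2 they were 2.04, adjusted p = 0.0425, and 2.16, adjusted p = 0.0163). Its transcription start region (chr9:123968256-123968919) also lies within 10 kb of Ccr1l1. It had log2 densities of 0.94 and 1.77 in LN IL-4+, 3.73, 3.27 and 3.15 in lung IL-4+ and 3.14 and 2.97 in lung IFNγ+ cells. Every lung library was above those of the lymph node. It was 4.09-fold higher in lung IL-4+ (2.03, SE 0.34, adjusted p = 0.0135) and 3.26-fold higher in lung IFNγ+ cells (1.70, SE 0.37, adjusted p = 0.0311) than in the lymph node. The first value was 1.86 (adjusted p = 0.0315) without lung IL-4+ replicate 1, and the call was lost only without lung IL-4+ replicate 2 (adjusted p = 0.073). The second was lost without replicate 1 of LN IL-4+, replicate 2 of lung IL-4+ or either lung IFNγ+ library (1.29 to 2.12, adjusted p up to 0.322).
Ccr1 before the start, chr9:123968693-123968942, GRCm38, minus strand (RefSeq): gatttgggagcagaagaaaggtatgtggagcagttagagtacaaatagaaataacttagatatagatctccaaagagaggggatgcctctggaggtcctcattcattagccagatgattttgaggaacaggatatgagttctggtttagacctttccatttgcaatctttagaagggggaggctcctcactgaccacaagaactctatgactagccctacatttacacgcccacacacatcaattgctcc
These 250 bases held none of the 7 motifs searched.

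CCR3 is the receptor for the eotaxins CCL11 and CCL24. No region lay at the transcription start of Ccr3 (ENSMUSG00000035448.9, plus strand, chr9:124021972-124031689), and 3 of its 4 regions were past its end. Its locus signal was 4.89 and 6.90 in LN IL-4+ cells, 13.4, 13.1 and 12.9 in lung IL-4+ cells and 18.1 and 18.3 in lung IFNγ+ cells, so that the 3 populations did not overlap and the order was LN IL-4+, lung IL-4+, lung IFNγ+. The lung IFNγ+ libraries were 3.13-fold above the lymph node (1.64, SE 0.23, adjusted p = 0.0177). Lung IL-4+ cells were at 1.18 against the lymph node (SE 0.21, adjusted p = 0.0507; 1.16, adjusted p = 0.0736, without lung IL-4+ replicate 1) and at -0.47 against lung IFNγ+ cells (SE 0.21, adjusted p = 0.341), neither of which was called (the first was called at 1.42, adjusted p = 0.0319, without LN IL-4+ replicate 2). The lung IFNγ+ call was lost without lung IL-4+ replicate 2 or either lung IFNγ+ library (1.40 to 1.89, adjusted p up to 0.283).

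The called region of Ccr3 lay 7248 bp past the end of the gene (chr9:124038937-124039382), with log2 densities of 0.44 and 2.45 in LN IL-4+, 3.62, 3.35 and 3.53 in lung IL-4+ and 4.42 and 4.35 in lung IFNγ+ cells. The lymph node libraries differed from each other by more than the lung libraries did. The region was called in lung IFNγ+ cells (2.94, SE 0.51, adjusted p = 0.0124) and in lung IL-4+ cells (2.05, SE 0.47, adjusted p = 0.0461). The second call was lost without lung IL-4+ replicate 1 (1.99, adjusted p = 0.0811) and without replicate 1 of LN IL-4+, replicate 2 or 3 of lung IL-4+ or either lung IFNγ+ library (1.04 to 3.06, adjusted p up to 0.153), and the first without either lung IFNγ+ library (1.93 to 3.95, adjusted p up to 0.134). Without the flanks, or with flanks of 5 kb, only the exon region remained in the locus, and the call against the lymph node was lost. The locus differences were then 0.43 (adjusted p = 0.595 and 0.587) for lung IFNγ+ and 0.64 (adjusted p = 0.479 and 0.480) for lung IL-4+ cells against LN IL-4+ cells, and 0.21 instead of -0.47 between the lung populations.
Ccr3 downstream region, chr9:124039010-124039309, GRCm38, plus strand: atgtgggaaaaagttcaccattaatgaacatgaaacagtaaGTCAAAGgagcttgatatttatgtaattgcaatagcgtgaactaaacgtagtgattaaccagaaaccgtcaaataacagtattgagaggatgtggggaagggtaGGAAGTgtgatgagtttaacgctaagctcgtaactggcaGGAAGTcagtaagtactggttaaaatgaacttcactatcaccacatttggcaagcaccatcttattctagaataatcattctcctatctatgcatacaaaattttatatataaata
The window held 1 TCF match and 2 ETS matches.

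Of the receptors known from type-2 helper cells, Ccr8 was higher in the lung and Ccr4 was the one with its highest signal in lung IL-4+ cells and its lowest in lung IFNγ+ cells. CCR8 binds CCL1 and, in mice, CCL8. The Ccr8 locus (ENSMUSG00000042262.5, plus strand, chr9:120092114-120094906) was at 79.8 and 72.7 in LN IL-4+ cells, 123.7, 153.5 and 155.5 in lung IL-4+ cells and 121.1 and 128.3 in lung IFNγ+ cells. Every lung library was above the lymph node, and the lung populations overlapped. The locus was 1.88-fold higher in lung IL-4+ cells than in LN IL-4+ cells (0.91, SE 0.13, adjusted p = 0.0291; 1.02, adjusted p = 0.0292, without lung IL-4+ replicate 1; 0.53, adjusted p = 0.0636, with flanks of 25 kb) and at 0.71 in lung IFNγ+ cells (SE 0.15, adjusted p = 0.0556; called at 0.0346 without lung IL-4+ replicate 1 and at 0.0307 without LN IL-4+ replicate 2). The tissue call was lost without replicate 2 or 3 of lung IL-4+ or either lung IFNγ+ library (0.85 to 1.02, adjusted p up to 0.182). The lung populations differed by 0.20 (95% interval -0.11 to 0.51, adjusted p = 0.415).

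At the Ccr8 transcription start (chr9:120090391-120092287) the log2 densities were 4.07 and 4.13 in LN IL-4+, 5.05, 5.25 and 5.17 in lung IL-4+ and 4.59 and 4.63 in lung IFNγ+ cells, with no overlap of the populations, of which lung IL-4+ cells were highest. The tissue difference of 1.06 (SE 0.17, adjusted p = 0.0118) was 2.08-fold and so below the 3-fold limit. A region 8959 bp before the gene (chr9:120082603-120083155) had the other order, with 3.31 and 4.45 in LN IL-4+, 5.33, 5.09 and 5.21 in lung IL-4+ and 5.90 and 6.00 in lung IFNγ+ cells. It was called in lung IFNγ+ cells (2.07, SE 0.31, adjusted p = 0.00621) and was at 1.33 (SE 0.28, adjusted p = 0.0341) in lung IL-4+ cells, which passed 3-fold without LN IL-4+ replicate 2 (1.90, adjusted p = 0.000655). The call was lost without LN IL-4+ replicate 1 or either lung IFNγ+ library (1.50 to 2.64, adjusted p up to 0.0793). The difference between the lung populations was 0.55 (adjusted p = 0.192) at the start and -0.74 (adjusted p = 0.276) at the upstream region, neither past the threshold.
Ccr8 upstream region, chr9:120082730-120083029, GRCm38, plus strand: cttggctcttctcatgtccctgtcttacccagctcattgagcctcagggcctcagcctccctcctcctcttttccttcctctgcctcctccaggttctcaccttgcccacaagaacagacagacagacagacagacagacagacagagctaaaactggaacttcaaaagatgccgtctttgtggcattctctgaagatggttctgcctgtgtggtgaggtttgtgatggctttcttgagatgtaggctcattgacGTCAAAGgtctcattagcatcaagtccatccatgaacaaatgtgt
The window held 1 TCF match.

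CCR4 binds CCL17 and CCL22. The Ccr4 locus (ENSMUSG00000047898.7, minus strand, chr9:114490316-114504916) was at 144.1 and 167.9 CPM in LN IL-4+ cells, 180.3, 208.9 and 200.5 in lung IL-4+ cells and 125.5 and 124.5 in lung IFNγ+ cells. The 3 populations did not overlap, and the order was lung IFNγ+, LN IL-4+, lung IL-4+. No difference was called over all loci. That between the lung populations was 1.57-fold (0.65, SE 0.12, 95% interval 0.38 to 0.92, adjusted p = 0.102; 0.71, adjusted p = 0.0672, without lung IL-4+ replicate 1), and those against LN IL-4+ cells were 0.34 (adjusted p = 0.255) for lung IL-4+ and -0.32 (adjusted p = 0.283) for lung IFNγ+ cells. The difference between the lung populations passed the threshold on leaving out LN IL-4+ replicate 1 or 2, but the calls over all loci rose there too. Within the wide libraries the difference was 0.53. The transcription start region (chr9:114494128-114498068) had log2 densities of 3.84 and 3.96 in LN IL-4+, 3.57, 4.27 and 4.14 in lung IL-4+ and 3.00 and 3.12 in lung IFNγ+ cells, a difference of 0.94 (SE 0.25, adjusted p = 0.142; 1.15, adjusted p = 0.0455, without lung IL-4+ replicate 1) between the lung populations. One region downstream (chr9:114486329-114489305) passed the adjusted p but not the 3-fold limit, at 1.32 (adjusted p = 0.0373). The locus also reaches into Trim71, and its parts went apart. Of the 13 regions outside Trim71, 11 had a higher mean in lung IL-4+ cells than in lung IFNγ+ cells (median 0.90), and 11 had a lower mean in lung IFNγ+ cells than in the lymph node (median -0.71). The 4 regions in Trim71 all had a higher mean in lung IFNγ+ cells than in the lymph node (median 0.98). This division was made after the values were seen.

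Cxcr6, whose ligand CXCL16 is found in lung and liver and which marks many tissue-resident T cells, had an accessible promoter in all 3 populations. The gene (ENSMUSG00000048521.8, plus strand, chr9:123806475-123811760) lies inside the body of Fyco1, so all 12 of its regions can belong to either gene. Its locus signal was 99.4 and 72.7 in LN IL-4+ cells, 106.5, 182.6 and 184.9 in lung IL-4+ cells and 134.5 and 133.8 in lung IFNγ+ cells. The lung libraries were above those of the lymph node, and lung IL-4+ replicate 1 was the lowest of them. The differences against LN IL-4+ cells were 0.85 (SE 0.25, adjusted p = 0.189) for lung IL-4+ cells and 0.66 (SE 0.28, adjusted p = 0.294) for lung IFNγ+ cells. Without lung IL-4+ replicate 1 the first was 1.11 and was called (adjusted p = 0.0432). At the start (chr9:123806254-123806693) the log2 densities lay between 4.77 and 5.56 in all 7 libraries, with differences of 0.32 and 0.40 (adjusted p = 0.514 and 0.376) from the lymph node.

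The called regions lay farther away, in Fyco1. The first (chr9:123817538-123819050) had log2 densities of 1.16 and 0.50 in LN IL-4+, 2.62, 2.79 and 2.79 in lung IL-4+ and 2.76 and 2.74 in lung IFNγ+ cells, and was 3.75-fold and 3.81-fold higher in the lung populations (1.91, SE 0.34, adjusted p = 0.0184, and 1.93, SE 0.38, adjusted p = 0.0200). The tissue value was 1.96 (adjusted p = 0.0308) without lung IL-4+ replicate 1 and was lost as a call without replicate 2 of LN IL-4+, replicate 2 or 3 of lung IL-4+ or either lung IFNγ+ library (1.58 to 2.24, adjusted p up to 0.0913). The second (chr9:123819768-123820946) was called in lung IFNγ+ cells at 2.05 (SE 0.39, adjusted p = 0.0175) and was at 1.54 (SE 0.35, adjusted p = 0.0474) in lung IL-4+ cells, just under 3-fold (called at 1.76 without lung IL-4+ replicate 1 and at 1.87 without LN IL-4+ replicate 1). The lung IFNγ+ calls at both regions were lost without either lung IFNγ+ library (1.60 to 2.26, adjusted p up to 0.263, and 1.72 to 2.37, adjusted p up to 0.236).

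Ccr6 and Ccr9, the receptors for CCL20 and CCL25 of which the second is known from gut homing, were called in no comparison at the level of the locus. The Ccr6 locus (ENSMUSG00000040899.14, plus strand, chr17:8236043-8257141) was at 21.4 and 16.5 in LN IL-4+ cells, 22.3, 17.5 and 13.5 in lung IL-4+ cells and 28.8 and 28.2 in lung IFNγ+ cells. The IFNγ+ libraries were highest and the IL-4+ populations overlapped. Its differences were -0.11 (adjusted p = 0.891) for lung IL-4+ and 0.60 (adjusted p = 0.309) for lung IFNγ+ against LN IL-4+ cells and -0.71 (SE 0.24, adjusted p = 0.296; -0.89, adjusted p = 0.108, without lung IL-4+ replicate 1) between the lung populations. Its mean in lung IL-4+ cells was below that of lung IFNγ+ cells at 11 of 12 regions (median -0.80), and at 5 of the 12 the libraries did not overlap, where this held for 21.2% of all regions in that direction. Few insertions were seen at its starts, with between 33 and 107 in the most accessible of its 3 start regions (chr17:8242217-8242653), which differed by -0.27, -0.31 and 0.04 in the order lung IL-4+ and lung IFNγ+ against LN IL-4+ and lung IL-4+ against lung IFNγ+. A region in an exon (chr17:8251670-8252108) was called in lung IFNγ+ cells against the lymph node (2.94, SE 0.72, adjusted p = 0.0490), with log2 densities of 4.22 and 4.38 in lung IFNγ+, 3.62, 3.81 and 2.41 in lung IL-4+ and 0.03 and 2.68 in LN IL-4+ cells. The lymph node libraries were far apart there, and the call was lost without any library other than LN IL-4+ replicate 2 (1.62 to 4.27, adjusted p up to 0.268).

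The Ccr9 locus (ENSMUSG00000029530.16, plus strand, chr9:123678439-123784330) was at 119.8 and 146.8 in LN IL-4+ cells, 162.1, 154.0 and 152.2 in lung IL-4+ cells and 145.3 and 140.5 in lung IFNγ+ cells. Lung IL-4+ libraries were highest by a small margin, and differences were between 0.11 and 0.23 with adjusted p-values of 0.429 to 0.675. The annotated gene begins at the start of Slc6a20a and passes over that of Lztfl1, whose promoter, with log2 densities of 5.85 to 6.42, was the most accessible of its 21 regions. The region at its first start (chr9:123678231-123679113) lay between 2.10 and 2.78 in all libraries. Although the sum was not called, 3 of its regions were. An intron region (chr9:123722791-123723492) had 1.82 and 2.80 in LN IL-4+, 4.39, 4.14 and 4.49 in lung IL-4+ and 3.99 and 4.14 in lung IFNγ+ cells, and was called in both lung populations at 2.03 (SE 0.29, adjusted p = 0.00812; 2.01, adjusted p = 0.0198, without lung IL-4+ replicate 1) and 1.75 (SE 0.32, adjusted p = 0.0153). The calls were lost without replicate 1 of LN IL-4+ or replicate 2 of lung IL-4+ (1.54 to 2.53 over all libraries left out, adjusted p up to 0.053) and without LN IL-4+ replicate 1 or either lung IFNγ+ library (1.26 to 2.25, adjusted p up to 0.166), respectively. A region in an exon shared with the overlapping gene AC165425.1 (chr9:123768366-123768844) was called in lung IL-4+ cells at 2.04 (SE 0.38, adjusted p = 0.0209; 1.95, adjusted p = 0.0468, without lung IL-4+ replicate 1; lost without replicate 1 of LN IL-4+ or replicate 2 or 3 of lung IL-4+, 1.47 to 2.61, adjusted p up to 0.0875). Another intron region (chr9:123763608-123764146) was called in lung IFNγ+ cells at 1.66 (SE 0.36, adjusted p = 0.0314; lost without replicate 1 of LN IL-4+, replicate 2 of lung IL-4+ or either lung IFNγ+ library, 1.36 to 1.96, adjusted p up to 0.361).
Ccr9 intron region, chr9:123722992-123723291, GRCm38, plus strand: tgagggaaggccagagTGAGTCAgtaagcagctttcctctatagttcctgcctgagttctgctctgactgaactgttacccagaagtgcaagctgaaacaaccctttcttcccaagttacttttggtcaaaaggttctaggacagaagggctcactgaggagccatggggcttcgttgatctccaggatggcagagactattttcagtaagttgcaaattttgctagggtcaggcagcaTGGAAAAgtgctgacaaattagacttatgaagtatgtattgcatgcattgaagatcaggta
The window held 1 AP-1 match and 1 NFAT match.

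Per kb of region, which allows the genes to be set side by side, Cxcr3 was the least accessible of the 9 in LN IL-4+ cells, at 1.65 ± 0.179 CPM per kb (SD, n = 2), and in lung IL-4+ cells, at 2.22 ± 0.253 (SD, n = 3), and stood at 9.14 ± 0.550 (SD, n = 2) in lung IFNγ+ cells. Ccr8 was the most accessible in both lung populations, at 16.1 ± 1.98 (SD, n = 3) and 13.9 ± 0.566 (SD, n = 2). In the lymph node Ccr9 (9.51 ± 1.36), Ccr4 (8.93 ± 0.964) and Ccr8 (8.49 ± 0.558, each SD, n = 2) were highest and did not differ beyond their spread. The Ccr9 value includes the promoter of Lztfl1, which was at a mean of 81.2 CPM per kb in LN IL-4+ cells. It is thus not a value of the receptor gene alone, and neither is that of Cxcr6, whose regions all lie in Fyco1. Ccr6 was low throughout, at 3.11 to 4.99 on average per population.

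Of the other chemokine receptors listed, 11 had a locus whose regions none of the 9 shares. By limma 0 of these were called in each of the 3 comparisons, and 3, 5 and 4 were at an unadjusted p below 0.05, with medians of 0.03, -0.16 and 0.31. Of 17 ligands of the 9 receptors, 12 had a locus with regions. Against the lymph node, 2 were called higher in lung IL-4+ cells (0.664% of all loci) and 3 higher in lung IFNγ+ cells (1.34% of all loci). None was called lower in the lung (0 at an unadjusted p below 0.05 as well) or between the lung populations (3 at an unadjusted p below 0.05). Ccl1, the ligand of CCR8, was at 63.5 and 70.9 in LN IL-4+, 179.6, 165.0 and 152.8 in lung IL-4+ and 143.1 and 136.9 in lung IFNγ+ cells, and was called in both lung populations (1.30, SE 0.12, adjusted p = 0.00895, and 1.06, SE 0.13, adjusted p = 0.0134). Ccl24, an eotaxin and ligand of CCR3, was low but higher in lung IL-4+ cells (2.12, SE 0.35, adjusted p = 0.0412), at 4.41, 3.43 and 3.49 against 0.792 and 0.935 in the lymph node. Ccl3 (2.78, SE 0.35, adjusted p = 0.0139) and Ccl5 (2.32, SE 0.24, adjusted p = 0.00896), ligands of CCR1 that effector T cells themselves produce, were higher in lung IFNγ+ cells than in the lymph node. The median over the 12 ligands was 0.44, 0.77 and -0.06 in the 3 comparisons. Ccl7 and Ccl11 had the same signal in every library, so they do not count as separate loci, and the median of 0.77 was their shared value.

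The loci most like the called receptors were found by the root mean square difference of their centred log2 signals over the 7 libraries, leaving out genes that share a region with them. For Cxcr3 they were Klrc3 (0.230), Ifng (0.247), the gene of the cytokine that defined the reporter, and Tmem171 (0.293). Ifng was at 72.0 and 71.2 CPM in lung IFNγ+ cells, 16.6, 30.8 and 20.3 in lung IL-4+ cells and 16.6 and 12.5 in LN IL-4+ cells, with both IFNγ+ libraries above every IL-4+ library, as at Cxcr3. For Ccr2 the first 2 were Itgb3 (0.123) and Il18r1 (0.126), for Ccr3 Nmnat2 (0.0636), Cd163l1 (0.0907) and Hrh4 (0.126), and for Ccr8 Pik3r5 (0.0485), Src (0.0539) and Hc (0.0840). These are descriptions over 7 libraries that share the split in spread.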

How the data were processed

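Open chromatin was measured by ATAC-seq in 7 libraries of 3 populations of sorted CD4+ T cells. Per the study's methods, the authors trimmed adapters with skewer, aligned reads to GRCm38 with Bowtie2 2.3.2, marked duplicates with Picard, removed mitochondrial, low-quality and blacklisted reads, called summits in each replicate with MACS2 2.1.1, centred windows of equal width on them, merged windows that overlapped between replicates, left out the Y chromosome and counted transposase insertions in each region. The deposited values are log2 insertions per kb per 1000000, normalised by the authors with voom of limma 3.38.3 in R 3.5.1. Their sorted values nearly coincide between libraries, so only relative differences can be seen. Insertions per region were rebuilt from the rank of the distinct values in a library, which gives lower limits.

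The 9 genes, the lists and the tests were chosen with earlier results of these data known. All 7 columns were used. Genes came from GENCODE M21 and promoter sequences from RefSeq, both in GRCm38. Differences were fitted with limma 3.58.1 in R 4.3.3, with 1 mean per group over all 7 libraries and an intensity-dependent variance. The p-values were adjusted by Benjamini-Hochberg over all 113820 regions or 17021 loci. The fit was run on simulated data with independent noise and 1 spread per region for all libraries. Such data hold neither the narrow and wide split nor the X chromosome shift, so they cannot show how these affect the calls. Regions were called at an adjusted p below 0.05 and at least 3-fold, loci at an adjusted p below 0.05. For each gene the region at its start and its called regions are named. A called region and some listed genes are not reported here. Replicates are separate samples by their labels and, per the study's figure legend, mice of 1 experiment. Whether lung and lymph node libraries came from the same mice is not given in the sources used here.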

Additional observations from a re-analysis of the deposited data

How the results depend on the processing

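With 2 or 3 libraries a group, the counts of calls depended on single libraries and on how the spread was modelled. The calls over all features moved as well. Without replicate 1, 2 or 3 of lung IL-4+, 2070, 375 and 1236 of all regions were called for lung IL-4+ against LN IL-4+. For lung IFNγ+ against LN IL-4+ they numbered 4096, 2329 and 3281, and between the lung populations 1168, 1 and 45. The calls over all loci were 152, 3 and 4, then 428, 33 and 140, and 0 in each between the lung populations. Leaving out 1 library at a time, the receptor regions called ranged from 0 to 11 for lung IL-4+ against LN IL-4+ (6 with all), from 0 to 17 for lung IFNγ+ against LN IL-4+ (14) and from 0 to 4 between the lung populations (3), and the loci called from 0 to 4 (2), from 0 to 5 (3) and from 0 to 2 (1). In the same order of comparisons, regions called were 0, 6 and 0 without a variance trend, 11, 17 and 4 at 2-fold or with no fold minimum, 4, 6 and 4 when the fit held the groups compared alone, and 7, 14 and 9 with array weights. Loci called were 0, 0 and 2 with the groups compared alone, 7, 6 and 2 with the spread class as a covariate, 3, 2 and 0 without flanks, 0, 0 and 0 as means of log2 densities, 3, 2 and 0 with the X chromosome centred, and 3, 3 and 7 with array weights, whose estimation did not converge and which called 11929 of 17021 loci between the lung populations. In the same order, 0, 1459 and 0 of all regions were called without a variance trend. They numbered 1064, 2522 and 1195 with the groups compared alone and 1619, 4500 and 6561 with array weights. In the main fit they numbered 1982, 3450 and 564. Of all loci, 5, 0 and 161 were called with the groups compared alone and 0, 2 and 0 as means of log2 densities. With the X chromosome centred they numbered 188, 377 and 3, and without flanks 202, 304 and 13 of 15300. Median centring moved the median of all loci between the lung populations from -0.04 to -0.13. A pseudocount, quantile normalisation, leaving out low regions and flanks of 5 or 25 kb kept each count within 1.5 times or 1 call of its value.

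Libraries with the same replicate number had deviations from their group means correlated at -0.542 to 0.0574. In a group of 2 libraries the deviations mirror each other (a correlation of -1). These values therefore cannot show whether a number marks a shared mouse. With a replicate block, 0, 1 and 0 receptor regions and 0, 0 and 0 receptor loci were called, beside 0, 556 and 0 of all regions and 0, 0 and 0 of all loci.

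The direction changed for no difference that had been called. Between the lung populations the Ccr1 locus was at 0.0672 with the replicate block, 0.531 with the spread covariate, 0.327 without flanks and 0.570 with 25 kb flanks, and from -0.347 to 0.0672 on leaving out 1 library. The loci of Ccr2 without flanks (0.195), Ccr3 with flanks of 0 or 5 kb (0.210) and Cxcr6 with the covariate (-0.237) also turned there. For lung IL-4+ against LN IL-4+ the Ccr6 locus was at 0.460 without low regions, 0.0740 with the block and 0.0748 without flanks, and from -0.301 to 0.0789 on leaving out 1 library. The Ccr9 locus in lung IFNγ+ cells against the lymph node went from -0.0396 to 0.254 on leaving out 1 library. Among start regions between the lung populations, that of Ccr2 was at -2.8e-05 with the covariate, that of Ccr6 at -0.0465 when median centred and -0.175 with array weights (-0.398 to 0.298 on leaving out 1 library), and that of Cxcr6 at 0.182 with the covariate. The region at the first Ccr9 start was at 0.0649 with the covariate for lung IFNγ+ against LN IL-4+ cells (-0.262 to 0.124 on leaving out 1 library). For lung IL-4+ against LN IL-4+ the start regions went from -0.0397 to 0.310 (Ccr4), -0.112 to 0.311 (Cxcr3) and -0.0283 to 0.660 (Cxcr6) on leaving out 1 library. The first Cxcr6 region in Fyco1 was at 0.0096 between the lung populations with array weights and at -0.0499 to 0.0359 on leaving out 1 library. The causes were not tested.

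Depth set a limit in regions with few insertions, such as the start regions of Ccr6 (33 to 107 insertions a library) and Ccr1 (56 to 444). Some called regions with large differences had fewer in their lowest library. The lowest count was 16 at the Ccr2 downstream region, 25 at the Cxcr3 upstream region, 28 at the called Ccr6 exon region and 34 at the called Ccr3 region.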
